A study of Mus musculus with 8 samples.

Results

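Interferon-stimulated genes are the genes that cells switch on when interferons reach their receptors. The 39 genes described here were chosen by name, as mouse interferon-induced antiviral effectors, interferon regulatory and STAT transcription factors and interferon-inducible GTPases, from the 24630 genes of the deposited table. They comprise 24 type I effectors, 2 nucleic acid sensors, 6 transcription factors and 7 interferon-gamma GTPases. Each gene was compared between old and young quiescent muscle stem cells (satellite cells, which lie along muscle fibres and rebuild them after injury). The 4 old libraries came from male C57BL/6 mice aged 22 months and the 4 young libraries from male C57BL/6 mice aged 4 months, with 1 animal per library and no treatment or altered allele named for either age. Per the labels, limb muscle cells that were CD45-, CD31-, Sca1- and VCAM+ were collected by flow cytometry and frozen without culture, so the libraries describe cells after dissociation and sorting. RNA selected for its poly(A) tails was sequenced after oligo(dT)-primed cDNA synthesis, from whole sorted populations. In such bulk samples, fewer cells of a type and less RNA per cell cannot be told apart.

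Type I interferons signal through the receptor chains Ifnar1 and Ifnar2 and the kinases Jak1 and Tyk2 to a complex that holds Stat2 and Irf9 and binds the interferon-stimulated response element (ISRE) in the promoters of effector genes. Interferon gamma signals through Ifngr1, Ifngr2, Jak1 and Jak2 to gamma-activated sites (GAS), and it is the classical inducer of the GTPases that attack the vacuoles of intracellular pathogens. Stem cells of several tissues are known to express part of these genes without infection.

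The old libraries held 20.1 to 24.9 M reads in genes, against 1.91 to 6.56 M in the young libraries (M, the SI prefix mega). Every young library was shallower than every old one, so depth cannot be told apart from age. In a gene of 1 kb, 3 reads were worth 0.121 to 0.149 RPKM (reads per kb of gene and M reads) in old libraries and 0.458 to 1.57 RPKM in young libraries, for counting error only, since amplified reads are not independent molecules. The sorted cells carried the markers of muscle stem cells. All 12 markers of that list passed the filter, and they summed to 10908 to 14265 CPM (reads per M reads in genes) in old libraries and 10641 to 13769 CPM in young libraries. Most of these reads came from Sdc4 and from Vcam1, on which the cells were sorted. Over the old libraries Sdc4 had 388229 reads, Vcam1 377384 and Pax7 5515. Of the 12 markers, 2 rose as a share of reads, Myod1 and Vcam1, against 12.3% of all tested genes. Another 5, Pax7, Calcr, Cdh15, Chodl and Cd34, fell, against 12.7%. With the authors' scaling Calcr alone of the 12 was lower, and of the 5 that fell Cd34 turned positive (0.13, not called). Myf5, Myod1, Vcam1, Sdc4, Cxcr4 and Msc were higher on that scale, where 68.1% of all tested genes were. Values are given as RPKM on library totals, in which a gene is measured as a share of its library's reads. The authors' scaling moved the median log2 fold change over the 5703 genes tested to 0.64, against -0.01 on library totals. Fold changes are old over young, on the scale of log2(RPKM + 1) and on library totals unless the deposited scale is named. Testing used limma over the 5703 genes with a mean of at least 5 deposited RPKM. A gene is said to have risen or fallen where the Benjamini-Hochberg adjusted p was under 0.05 on library totals.

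The promoters of 6 members that the results below turn on are printed as the 160 bases before the RefSeq start site, 5′ to 3′ on the strand of the gene (RefSeq, GRCm38.p6). Capitals mark matches to the ISRE core (GAAA, then any 2 bases, then GAAA), searched on both strands, where the other strand shows TTTC, any 2 bases and TTTC, and to the GAS motif (TTC, any 3 bases, GAA), which reads alike on both strands. An ISRE core is counted once for each start position, so cores may overlap. Isg15 stands at chr4:156200819-156200978 (minus strand), Ifit3 at chr19:34583369-34583528 (plus), Gbp2 at chr3:142620503-142620662 (plus), Igtp at chr11:58199396-58199555 (plus), Irgm2 at chr11:58214817-58214976 (plus) and Irf1 at chr11:53769854-53770013 (plus).
Isg15: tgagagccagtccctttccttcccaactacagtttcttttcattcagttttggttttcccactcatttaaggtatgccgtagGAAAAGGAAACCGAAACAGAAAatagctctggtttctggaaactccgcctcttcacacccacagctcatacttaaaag
Ifit3: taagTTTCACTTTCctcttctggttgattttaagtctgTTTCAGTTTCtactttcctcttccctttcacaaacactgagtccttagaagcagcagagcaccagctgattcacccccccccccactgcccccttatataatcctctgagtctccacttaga
Gbp2: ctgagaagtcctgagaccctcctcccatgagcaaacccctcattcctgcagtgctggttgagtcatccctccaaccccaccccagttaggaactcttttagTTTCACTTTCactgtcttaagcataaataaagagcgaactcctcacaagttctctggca
Igtp: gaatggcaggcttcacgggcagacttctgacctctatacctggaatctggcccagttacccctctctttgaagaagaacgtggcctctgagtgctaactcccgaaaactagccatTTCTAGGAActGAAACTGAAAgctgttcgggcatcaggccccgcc
Irgm2: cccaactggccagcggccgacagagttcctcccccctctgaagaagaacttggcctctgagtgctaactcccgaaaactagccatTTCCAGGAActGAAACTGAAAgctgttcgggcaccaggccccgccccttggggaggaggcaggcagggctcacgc
Irf1: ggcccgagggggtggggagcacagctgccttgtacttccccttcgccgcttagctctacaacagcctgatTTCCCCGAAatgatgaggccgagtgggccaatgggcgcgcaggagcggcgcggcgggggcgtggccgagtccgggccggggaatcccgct

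Isg15, Ifit3 and Gbp2 show ISRE cores without a GAS match, Igtp and Irgm2 carry a GAS match directly beside an ISRE core, and Irf1 has a GAS match alone. In Isg15 the 3 ISRE matches overlap one another in a single run. The search covered the whole window of 300 bases, from 250 before to 50 after each start site, and 32 of the 39 members had a window. The ISRE core was found in 17 of these 32 members (53.1%), against 3.99% of all 27025 genes with a window. The GAS motif was found in 13 members (40.6%), against 9.55% of all genes. All 6 GTPases with a window held an ISRE core, as did 8 of 19 type I effectors and 2 of 6 transcription factors. Both motifs were found in 3 GTPases, in 3 type I effectors and in 1 transcription factor. Of the 10 members that rose and had a window 6 held the ISRE core, and so did 9 of the 12 that were tested and not called. A match is only a run of letters and was not tested as a binding site.

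**Figure D1:**
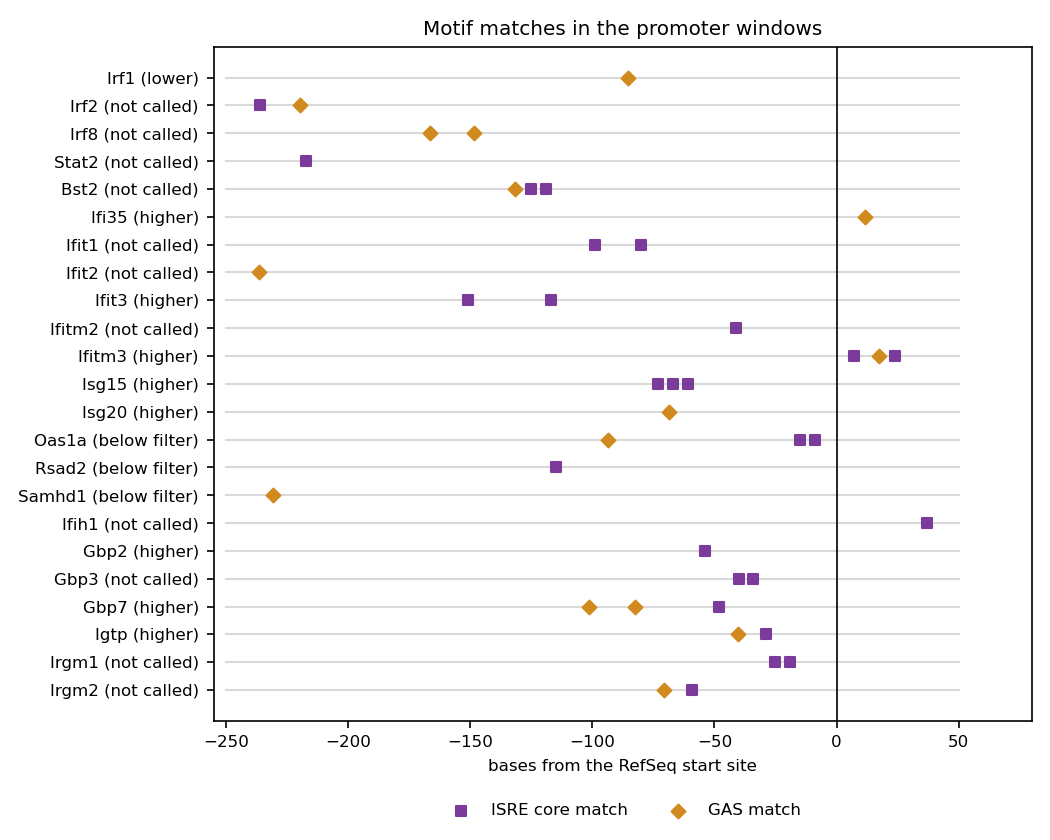
Motif matches in the promoter windows of the 23 members with at least 1 match, placed by their distance in bases from the RefSeq start site. Squares are ISRE cores and diamonds GAS matches, and each name is followed by the gene's call in old over young cells. Called and uncalled members both carry ISRE cores close to the start site.

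Old muscle stem cells had more transcript of the antiviral Ifit3, the ubiquitin-like modifier Isg15 and the GTPases Igtp and Gbp2 as a share of reads, and less of the transcription factor Irf1. Of the 39 members 26 passed the filter, and all 26 had a young mean of at least 5 deposited RPKM, so none passed through the old group alone. Among these 26, 11 rose (42.3%), against 12.3% of all tested genes. The members were proposed with earlier results of these data known, so the shares given here are a description. Only 1 of the 26, Irf1, fell, against 12.7% of all tested genes, and 14 were not called. The median log2 fold change of the 26 was 0.40, against -0.01 over all tested genes, and 21 were positive. The old and young values did not overlap for 11 members, all higher in old libraries, against 13.8% of tested genes without overlap in that direction. On the deposited scale 23 of the 26 were higher (88.5%), where 68.1% of all tested genes were, and 0 were lower, where 1.12% of all genes were. The 11 members that rose on library totals were all higher on the deposited scale too. Without young libraries 1 and 2, the shallowest, 8 members rose and 0 fell, where 475 of all tested genes rose and 559 fell.

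**Figure D2:**
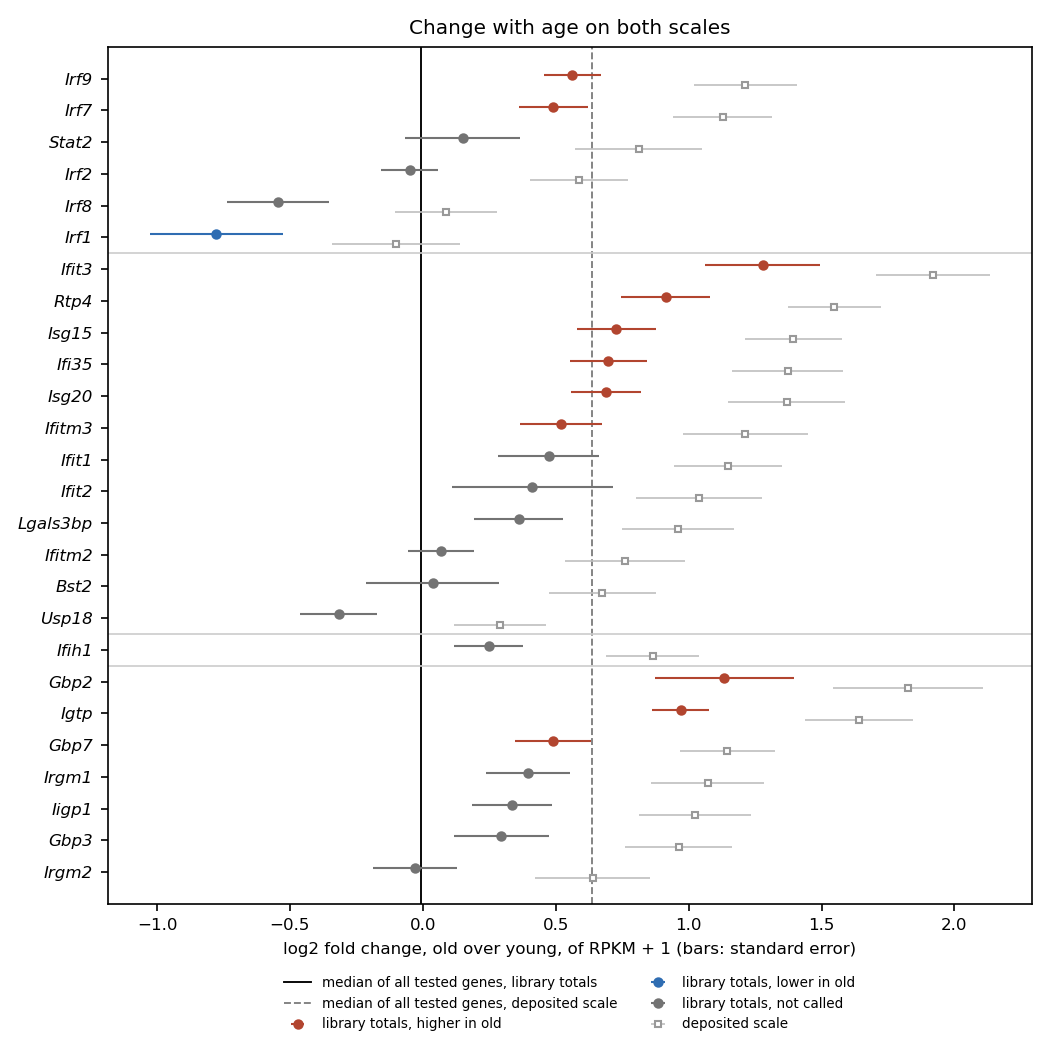
Log2 fold change of each tested member, old over young, on log2(RPKM + 1), with bars for the standard error. Filled circles are on library totals (red rose, blue fell, grey not called), open squares on the deposited scale, and the vertical lines mark the medians of all tested genes at -0.01 and 0.64. On the deposited scale all 26 members stand further to the right.

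The transcription factors moved apart. Irf9, the DNA-binding partner of Stat2 (chromosome 14, 55603571 to 55610030, plus strand), had 21.3, 20.6, 18.6 and 19.9 RPKM in old libraries and 14.2, 12.04, 14.2 and 12.8 RPKM in young libraries. The lowest old library stood above the highest young one. Its log2 fold change was 0.56 ± 0.11 (SE, adjusted p = 0.00467). Irf7, which amplifies type I interferon production (chromosome 7, 141262706 to 141266481, minus strand), had 14.6, 13.9, 10.97 and 15.6 RPKM in old libraries and 9.53, 9.83, 8.44 and 9.96 RPKM in young libraries. Old library 3 came closest to the young values, without overlap. The log2 fold change of Irf7 was 0.49 ± 0.13 (adjusted p = 0.0175), and the adjusted p became 0.0539 without old library 4, 0.0522 with young library 3 left out and 0.0555 with young libraries 1 and 2 left out. In the annotation, Irf9 shares 123 exonic bases with Rnf31 and Irf7 shares 45 with Phrf1, and the kit does not mark strand, so reads from shared bases could come from either gene.

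Irf1, an early target of interferon-gamma signalling (chromosome 11, 53770014 to 53778374, plus strand), had 43.9, 19.98, 40.6 and 22.8 RPKM in old libraries and 43.7, 55.2, 44.3 and 69.7 RPKM in young libraries. Old libraries 2 and 4 were low, while old libraries 1 and 3 lay next to young libraries 1 and 3, so the groups overlapped. The log2 fold change of Irf1 was -0.78 ± 0.25 (adjusted p = 0.0420), against -0.10 (adjusted p = 0.714) with the authors' scaling. The call was lost without old library 2 (adjusted p = 0.106) or 4 (0.121), and without young library 1 (0.0543), 2 (0.0693), 3 (0.0559) or 4 (0.109). Irf1 was not called without young libraries 1 and 2 together (0.0990), nor without a filter on low values (0.0670). Irf8, a factor of myeloid cells that can pair with Irf1, had 13.4, 6.82, 8.68 and 6.72 RPKM in old libraries and 11.2, 14.9, 13.6 and 12.6 RPKM in young libraries. Old library 1 stood among the young values and the other old libraries below them. For Irf8 the log2 fold change was -0.55 ± 0.19 (adjusted p = 0.0582, and 0.00759 without old library 1), against 0.087 with the authors' scaling. The summed leukocyte markers, which the sort should remove, followed a like order among old libraries, with 86.8 CPM in library 1, 32.9 in library 2, 80.5 in library 3 and 29.99 in library 4. In young libraries 1 to 4 they had 77.9, 145, 138 and 85.2 CPM, an order that Irf8 shared and Irf1 did not. All 17 leukocyte markers had reads in both ages, 2 passed the filter and neither was called. The order was not particular to leukocytes. Sums of endothelial, pericyte and muscle fibre markers also stood lower in old libraries 2 and 4 than in 1 and 3. Sums of fibro-adipogenic progenitor and tenocyte markers did not. The part of any such cells in the Irf1 and Irf8 values was not tested.

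Stat2, the partner of Irf9, had 26.1, 16.6, 25.8 and 30.4 RPKM in old libraries and 26.9, 15.5, 28.1 and 18.8 RPKM in young libraries. The groups overlapped over most of their range, and the log2 fold change was 0.15 ± 0.22 (adjusted p = 0.645). Irf2, which can repress Irf1 targets, was the most even member of this class, with 10.6 to 11.8 RPKM in old libraries and 10.5 to 12.3 RPKM in young libraries, and a log2 fold change of -0.05 ± 0.11. In all, 2 of the 6 transcription factors rose, against 12.3% of all tested genes, and 1 fell, against 12.7%. The median log2 fold change of the 6 was 0.05. The median was 0.70 on the deposited scale, near the 0.64 over all tested genes. There 4 were higher (66.7%), a share near the 68.1% of all tested genes, and 0 lower.

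**Figure D3:**
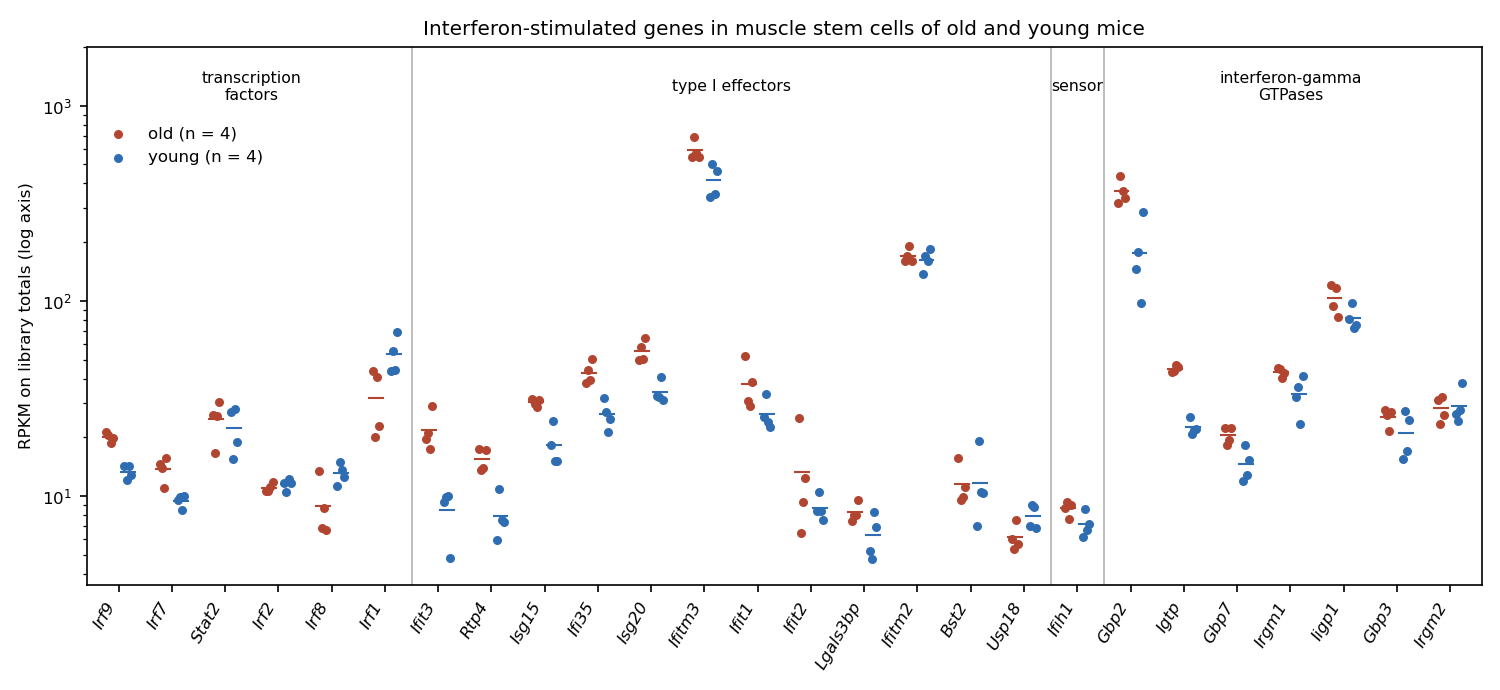
RPKM on library totals (log axis) of the 26 tested members, by class, with 1 point per library, old left of young, and a line at each mean (n = 4 each). Igtp, Irf9, Isg15 and Ifit3 show old points entirely above the young ones, whereas Irf1 has 2 old points within or next to the young range and 2 below it.

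Among the type I effectors, 6 of the 12 tested rose (50%, against 12.3% of all tested genes). Of the rest 0 fell (against 12.7%) and 6 were not called. The median log2 fold change of the 12 was 0.50. With the authors' scaling 11 of the 12 were higher (91.7%), where 68.1% of all tested genes were. The median was 1.18 there, against 0.64 over all tested genes. Ifit3, a tetratricopeptide protein that helps to bind foreign RNA (chromosome 19, 34583531 to 34588731, plus strand), had 19.6, 21.1, 17.4 and 28.9 RPKM in old libraries and 9.36, 9.89, 9.96 and 4.83 RPKM in young libraries. Old library 4 was the highest and young library 4 the lowest, and the groups did not overlap. Its log2 fold change of 1.28 ± 0.22 (adjusted p = 0.00265) was the largest among the members on library totals. Without old library 4 it was 1.14, and without young library 4, which was low among the young, it was 1.06. Ifit3b, a near-identical neighbour that could share reads with Ifit3, lay below the filter with 4.18 ± 0.886 RPKM in old libraries and 2.30 ± 0.601 RPKM in young libraries (SD, n = 4 each).

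Isg15 (chromosome 4, 156199424 to 156200818, minus strand), which is conjugated to proteins during the antiviral response, had 31.6, 29.6, 28.6 and 31.0 RPKM in old libraries and 18.2, 24.2, 15.1 and 15.1 RPKM in young libraries. The old libraries lay close together, and young library 2 came nearest to them. Isg15 rose by 0.73 ± 0.15 (adjusted p = 0.00594), and with all libraries thinned to equal totals it was 0.46 (adjusted p = 0.0931). Rtp4, a chaperone of receptors that also restrains viruses, had 17.4, 13.6, 13.9 and 17.2 RPKM in old libraries and 5.92, 10.8, 7.52 and 7.34 RPKM in young libraries, and rose by 0.91 ± 0.17 (adjusted p = 0.00369). In the annotation 296 of the 2131 exonic bases of Rtp4 (13.9%) are shared with a predicted gene on the same strand. Isg20, an exonuclease that degrades viral RNA, had 49.6, 57.8, 50.1 and 64.6 RPKM in old libraries and 32.5, 32.1, 40.8 and 30.9 RPKM in young libraries, with young library 3 above the other young ones. It rose by 0.69 ± 0.13 (adjusted p = 0.00460). Ifi35, which forms a complex with Nmi, had 37.9, 44.1, 39.1 and 50.4 RPKM in old libraries and 31.8, 27.0, 21.2 and 24.7 RPKM in young libraries. It rose by 0.70 ± 0.14 (adjusted p = 0.00645), and 290 of its 1727 annotated exonic bases lie opposite those of a predicted gene. For Ifit3, Rtp4, Isg20 and Ifi35 the old and young values did not overlap, and the calls held in each fit that left out 1 library.

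Ifitm3, a membrane protein that blocks virus entry at endosomes (chromosome 7, 141009586 to 141010770, minus strand), was the most abundant member. It had 544, 694, 576 and 549 RPKM in old libraries and 342, 504, 353 and 465 RPKM in young libraries. By its mean it stood above 99.0% of all tested genes in old and 98.6% in young libraries. Its log2 fold change was 0.52 ± 0.15 (adjusted p = 0.0305), and the call was lost without old library 2 (adjusted p = 0.0822), 3 (0.0508) or 4 (0.0559), and without young library 1 (0.0918) or 3 (0.0906). With young libraries 1 and 2 left out together it was 0.0582. Ifitm2, its neighbour on chromosome 7 with a like role, had 160, 171, 192 and 159 RPKM in old libraries and 138, 169, 160 and 185 RPKM in young libraries. The groups of Ifitm2 overlapped, and its log2 fold change was 0.07 ± 0.12 (adjusted p = 0.714). The ratio of Ifitm3 to Ifitm2 within a library, which no library scaling can change, was 3.00 to 4.06 in old and 2.21 to 2.98 in young libraries. The pair was chosen after its values were seen, so this is a description. In the annotation 268 of the 655 exonic bases of Ifitm2 (40.9%) are shared with a predicted gene on the same strand, and the related Ifitm2 and Ifitm3 may share reads, which limits the ratio.

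Ifit1, the cap-binding member of the Ifit family, had 52.5, 30.6, 28.9 and 38.2 RPKM in old libraries and 25.4, 33.3, 23.9 and 22.7 RPKM in young libraries. Old library 1 was high, and young library 2 lay above 2 old libraries. The log2 fold change of Ifit1 was 0.47 ± 0.19 (adjusted p = 0.0882), with 0.0498 without old library 3 and 0.0401 without young library 2. Ifit2, next to Ifit3 in the same cluster, had 25.0, 6.49, 9.35 and 12.4 RPKM in old libraries and 8.41, 10.5, 8.35 and 7.52 RPKM in young libraries, and a log2 fold change of 0.41 ± 0.30. Its old libraries spread on either side of the young ones, and the fold change of Ifit2 was 0.071 without old library 1 and 0.67 without old library 2, not called in either. Usp18, the protease that removes Isg15 and restrains the receptor, had 5.38 to 7.53 RPKM in old libraries and 6.87 to 9.00 RPKM in young libraries, with a log2 fold change of -0.32 ± 0.14 (deposited scale 0.29). Bst2, which tethers budding virions, had 9.53 to 15.6 RPKM in old libraries and 6.99 to 19.1 RPKM in young libraries (0.04 ± 0.25). Lgals3bp, a secreted glycoprotein, had 7.45 to 9.54 RPKM in old libraries and 4.78 to 8.25 RPKM in young libraries (0.36 ± 0.17).

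The other 12 type I effectors lay below the filter. They include the classical markers of a strong response, the dynamin-like GTPases Mx1 and Mx2, the oligoadenylate synthetases Oas1a, Oas2 and Oasl2, and Rsad2 (viperin). Mx1 had 0.123 ± 0.0554 RPKM in old libraries and 0.611 ± 0.200 RPKM in young libraries, from 6 to 17 reads per old and 4 to 14 per young library. Ifi44 had 0.419 ± 0.202 RPKM in old libraries and 1.90 ± 1.37 RPKM in young libraries. For comparison, 1411 olfactory and vomeronasal receptor genes, which are silent in muscle, averaged 0.0423 ± 0.00926 RPKM in old libraries and 0.497 ± 0.344 RPKM in young libraries. Low values thus stood higher in young libraries in general, and no direction is read from Mx1 or Ifi44. Rsad2 had 6.46, 2.18, 3.40 and 3.79 RPKM in old libraries and 3.86, 7.73, 1.41 and 3.33 RPKM in young libraries, with the highest value of each age in old library 1 and young library 2. Mx2 averaged 3.72 ± 0.612 RPKM in old libraries and 4.03 ± 1.33 RPKM in young libraries, and Oasl2 averaged 4.76 ± 0.821 and 3.67 ± 0.768 RPKM in old and in young libraries. Oas1a, Oas2, Cmpk2, Xaf1, Sp100 and Samhd1 averaged 0.947 to 4.08 RPKM in old libraries and 1.40 to 4.05 RPKM in young libraries. With the filter lowered to 1 RPKM, 37 members were tested, 12 rose (32.4%, against 7.27% of all genes) and 1 fell (against 22.3%). On the deposited scale at this filter 30 members were higher (42.1% of all genes were) and 0 lower (5.34%). On library totals the only call added was Herc6, the mouse ligase for Isg15, with 5.29, 4.68, 6.49 and 4.18 RPKM in old libraries and 3.79, 3.43, 2.86 and 3.06 RPKM in young libraries (0.51 ± 0.15, adjusted p = 0.0258). Its groups did not overlap. In the annotation 1269 of the 9292 exonic bases of Herc6 (13.7%) are shared with a predicted gene on the same strand.

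Neither nucleic acid sensor was called. Ifih1 (MDA5), a cytosolic sensor of long double-stranded RNA, had 7.65 to 9.27 RPKM in old libraries and 6.18 to 8.58 RPKM in young libraries, with a log2 fold change of 0.25 ± 0.13 (adjusted p = 0.188). Zbp1, a sensor of Z-form nucleic acids, lay below the filter, with 2.29, 3.27, 1.55 and 3.12 RPKM in old libraries and 1.16, 2.82, 1.38 and 1.39 RPKM in young libraries.

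All 7 interferon-gamma GTPases were tested, and 3 rose (42.9%, against 12.3% of all tested genes). Of the rest 0 fell (against 12.7%) and 4 were not called. The median log2 fold change of the 7 was 0.40. With the authors' scaling it was 1.07, against 0.64 over all tested genes. All 7 were higher there, as were 68.1% of all tested genes. Igtp (Irgm3), an immunity-related GTPase of the regulatory GMS group (chromosome 11, 58199556 to 58207591, plus strand), had 43.4, 43.6, 47.1 and 45.7 RPKM in old libraries and 25.5, 20.7, 21.7 and 22.1 RPKM in young libraries. Both ages were tight and lay far apart. Igtp rose by 0.97 ± 0.11 on the log2 scale (adjusted p = 0.000314, the lowest among the members). Over the fits without 1 library the fold change kept within 0.93 to 1.03. Irgm2, of the same group (chromosome 11, 58199618 to 58222782, plus strand), overlaps nearly all of Igtp in the annotation, and its RefSeq start site, whose promoter is printed above, lies inside those coordinates and beyond the end of Igtp. Irgm2 had 31.2, 23.3, 32.0 and 25.9 RPKM in old libraries and 26.3, 24.1, 27.5 and 37.8 RPKM in young libraries. These values overlapped, and the log2 fold change was -0.03 ± 0.16 (deposited scale 0.64). The ratio of Igtp to Irgm2 was 1.39, 1.87, 1.47 and 1.76 in old libraries and 0.972, 0.859, 0.789 and 0.584 in young libraries. Igtp stood above Irgm2 in each old library and below it in each young one. The pair was chosen after its values were seen, and the ratio has no test.

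The promoters of this pair, printed above, are close copies around their motifs. Over the 60 bases that start 30 before the ISRE core, 58 were identical, and the GAS match began 11 bases before the ISRE core in both. The motif itself lay 34 bases before the start site in Igtp and 64 before it in Irgm2, by the position of its first base. In the annotation the pair share 162 exonic bases, 8.01% of Igtp and 4.39% of Irgm2, and reads from them could come from either gene. Irgm1, the third member of the group, had 45.5, 44.7, 40.0 and 42.9 RPKM in old libraries and 32.3, 36.3, 23.3 and 41.3 RPKM in young libraries. Young library 4 overlapped the old range, and the log2 fold change was 0.40 ± 0.16 (adjusted p = 0.0909, and 0.0459 without young library 4). Iigp1 (Irga6), an effector that coats pathogen vacuoles, was abundant in both ages, with 120, 93.7, 117 and 83.0 RPKM in old libraries and 80.5, 97.5, 72.3 and 75.3 RPKM in young libraries (0.33 ± 0.15, adjusted p = 0.124).

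Of the guanylate-binding proteins, larger GTPases that help to lyse pathogen vacuoles, Gbp2 and Gbp7 rose and Gbp3 was not called. Gbp2 (chromosome 3, 142620602 to 142638008, plus strand) had 318, 434, 365 and 336 RPKM in old libraries and 146, 177, 97.8 and 285 RPKM in young libraries. Young library 4 lay just below the lowest old library, and the young values spread more widely than the old ones. The log2 fold change of Gbp2 was 1.13 ± 0.26 (adjusted p = 0.0104), 1.40 with young library 4 left out, and 1.11 with young libraries 1 and 2 left out, where it was not called (adjusted p = 0.0578). Gbp7 had 22.4, 18.3, 19.4 and 22.3 RPKM in old libraries and 11.9, 18.2, 12.8 and 15.2 RPKM in young libraries. Its log2 fold change was 0.49 ± 0.14 (adjusted p = 0.0283). In the annotation 637 of the 5614 exonic bases of Gbp7 (11.3%) are shared with a predicted gene on the same strand. Gbp7 lost its call without old library 1 (adjusted p = 0.0680) or 4 (0.0778), without young library 1 (0.0835) or 3 (0.0796), and with reads thinned to equal totals (0.0505). Gbp3 had 27.5, 25.9, 21.6 and 27.1 RPKM in old libraries and 15.5, 27.4, 16.96 and 24.6 RPKM in young libraries (0.30 ± 0.18, adjusted p = 0.245). The ratio of Gbp2 to Gbp3 averaged 14.4 ± 2.81 in old and 8.32 ± 2.70 in young libraries (SD, n = 4 each), with groups that overlapped.

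**Figure D4:**
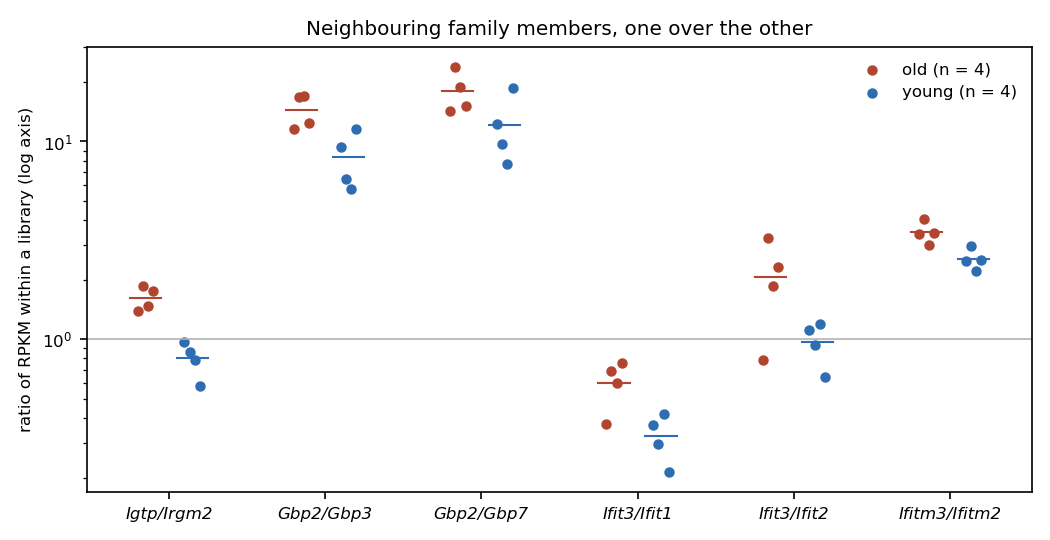
Ratios of RPKM between related members within each library (log axis), old left of young, with a line at each mean (n = 4 each). Igtp over Irgm2 lies above 1 in all old and below 1 in all young libraries, and Ifitm3 over Ifitm2 does not overlap either, whereas the Gbp2 and Ifit3 ratios overlap between the ages.

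The rest of the pathway was read from lists of textbook members. Of 21 interferon ligand genes none passed the filter. Their reads summed to 3 to 24 per old library and 15 to 28 per young library, although the old libraries were deeper. Low values stood higher in young libraries in general, so no direction is read from these sums. Of the 6 receptor chains 5 were tested, 0 rose (against 12.3% of all tested genes) and 1 fell (against 12.7%). Ifnar1, the chain on which type I interferons depend, had 10.2, 9.35, 12.1 and 10.5 RPKM in old libraries and 18.05, 14.6, 21.6 and 17.8 RPKM in young libraries. All old values lay below all young ones, and the log2 fold change was -0.71 ± 0.14 (adjusted p = 0.00454), against -0.07 (adjusted p = 0.766) with the authors' scaling. Ifnar2 (-0.23 ± 0.14), Ifngr1 (-0.25 ± 0.15) and Ifngr2 (-0.33 ± 0.16) were not called.

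Of the 5 genes next to the receptors 3 were tested, 1 rose (against 12.3% of all tested genes) and 0 fell (against 12.7%). Jak1, the gene that rose, had 140, 146, 193 and 154 RPKM in old libraries and 132, 90.2, 128 and 108 RPKM in young libraries (0.47 ± 0.15, adjusted p = 0.0436). The groups did not overlap. Jak2 (0.22 ± 0.18) was not called. Tyk2 lay below the filter, with 0.808 to 1.55 RPKM in old libraries and 2.13 to 2.90 RPKM in young libraries, where low values stood higher in general. Of 15 genes that sense nucleic acids or relay that signal 9 were tested, 0 rose and 1 fell, where 12.7% of all tested genes fell. The gene that fell was Mavs, the adaptor of RNA sensing, with 6.16 ± 0.650 RPKM in old libraries and 9.19 ± 1.84 RPKM in young libraries (-0.49 ± 0.16, adjusted p = 0.0395), and 0.11 on the deposited scale. Of 12 negative regulators 5 were tested, and 1, the phosphatase Ptpn1, rose (0.41 ± 0.11, adjusted p = 0.0229), where 12.3% of all tested genes rose.

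A wider list of 59 other interferon-induced genes had 28 tested. Of these 28, 4 rose, a share near the 12.3% of all tested genes, 0 fell (against 12.7%) and 24 were not called. The median log2 fold change of the 28 was 0.14, against -0.01 over all tested genes. On the deposited scale 22 of the 28 were higher, where 68.1% of all tested genes were. The median was 0.76 there, against 0.64 over all tested genes. Gbp6, another guanylate-binding protein, had 7.21, 7.45, 5.50 and 8.65 RPKM in old libraries and 2.80, 4.39, 2.25 and 3.07 RPKM in young libraries (1.00 ± 0.19, adjusted p = 0.00414). The young values of Gbp6 were all below 5 RPKM, and lower still on the deposited scale. Gbp6 thus passed the filter only through the old group, and its call is a description only. Nmi, the partner of Ifi35, rose by 0.57 ± 0.14, Parp9 by 0.47 ± 0.12 and the proteasome activator Psme2 by 0.45 ± 0.13. The chemokine Cxcl10, a sensitive target of interferon gamma, averaged 16.5 RPKM in old libraries and 25.3 RPKM in young libraries and was not called (-0.51, adjusted p = 0.209).

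The old animals did not share one order over the members. Old library 1 held the highest old value for 12 of the 26 tested members, library 2 for 3, library 3 for 4 and library 4 for 7. Among the 11 that rose, libraries 1 and 4 each held the highest old value for 4, library 2 for 2 and library 3 for 1. Ifit1, Ifit2 and Bst2 peaked in old library 1, whereas Ifit3, Ifi35, Isg20 and Irf7 peaked in library 4 and Gbp2 and Ifitm3 in library 2. Among young libraries, library 2, which had the fewest reads, held the highest value for 12 of the 26. The tenocyte marker sum also moved with age, with 1731 to 5244 CPM in old and 652 to 1011 CPM in young libraries. All 6 of its tested genes rose, against 12.3% of all tested genes. Lymphocyte markers summed to 4.06 to 15.5 CPM in old and 31.9 to 66.9 CPM in young libraries, and endothelial markers to 217 to 556 CPM in old and 566 to 672 CPM in young libraries. None of the 11 lymphocyte markers passed the filter, and low values stood higher in young libraries in general. Of the 11 endothelial markers 6 were tested, 0 rose (against 12.3% of all tested genes) and 0 fell (against 12.7%). Beside the same shares, 7 fibro-adipogenic progenitor markers were tested, of which 1 rose and 3 fell. Of 6 tested pericyte and smooth muscle markers 0 rose and 1 fell, and of 5 tested muscle fibre markers 0 rose and 0 fell. The part of any of these cells in the members' values was not tested.

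**Figure D5:**
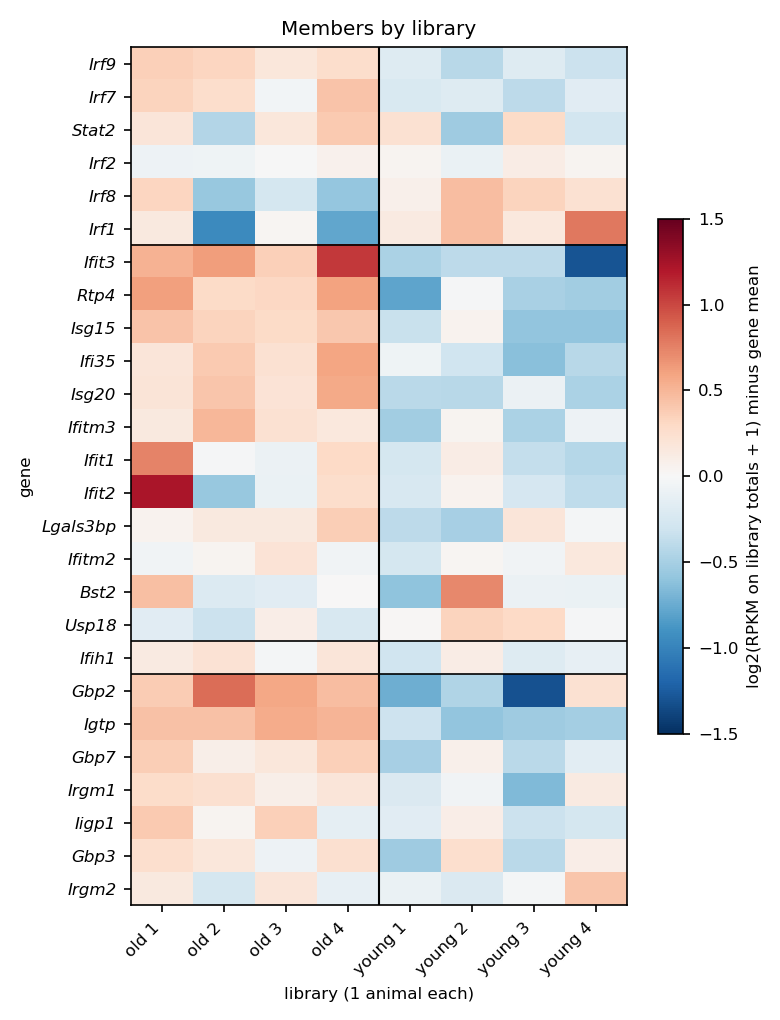
Each tested member's log2(RPKM on library totals + 1) in the 8 libraries minus its mean over them, old left of young, grouped by class. Red is above and blue below the gene's mean. Igtp and Irf9 are red in all old libraries, Irf1 is blue in old libraries 2 and 4, and Ifit2 is red chiefly in old library 1.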

How the data were processed

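Messenger RNA was measured in 8 libraries, 4 old and 4 young, with groups taken from the labels. The deposited table holds RPKM for 24630 genes, per the file headers and values. The authors' tools, per the submitters' processing notes, included STAR, featureCounts (Subread), Trim Galore and edgeR, with the builds GRCm38 and mm10. Their versions and settings, and how multi-mapping reads were treated, are not given in the sources consulted. The deposited RPKM resolved into whole reads for 100% of 23461 genes with reads (tolerance 0.001), and a value of 0 had been replaced by a small positive number in 7124 genes. Reads in genes were recovered from these steps, and each library was rescaled by its own total. The scaling in the table was 0.678 to 0.849 times the reads in old and 1.14 to 1.64 times the reads in young libraries.

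limma 3.58.1 (R 4.3.3) with a trended prior variance was fitted to log2(RPKM + 1) of the 5703 genes with a mean of at least 5 deposited RPKM, with age as the only term and Benjamini-Hochberg adjustment over all of them. The recovery and the fit were tested on simulated data. The members and gene lists were chosen with earlier results of these data known, and no list was tested as a set. Values are given for every library for members past the threshold and for those each class is best known for, and by range for the rest. For 34 of the 39 members the gene length behind the RPKM equalled that of GENCODE M21 (GRCm38), which gave the coordinates. Alternatives covered the scaling, the filter, the pseudocount, the variance trend, thinning of reads, a replicate block and each library left out. No column of the table was left unused. A gene of the pathway lists is not reported here.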

Additional observations from a re-analysis of the deposited data

Results flagged for a closer look

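Within each age, a library whose value stood far from the other 3 was looked for in every member, by its gap to the nearest value over the range of the group (Dixon's test). Of 78 groups 4 were found, and chance gives about 1 in 20. Ifit3 was low in young library 4, at 4.83 RPKM on library totals, against 9.36 to 9.96 RPKM in the other young libraries. Isg20 was high in young library 3, at 40.8 RPKM, against 30.9 to 32.5 RPKM. Oas1a was high in young library 2, at 3.05 RPKM, against 1.29 to 1.40 RPKM, and so was Zbp1, at 2.82 RPKM, against 1.16 to 1.39 RPKM. Oas1a and Zbp1 lay below the filter, and young library 2 had the fewest reads.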

How the results depend on the processing

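Direction and call of the 26 tested members were compared over 19 settings, 491 fits of a member in all. They were as reported in 437, the call was lost in 27 and gained in 14, and the direction turned in 13. With the deposited scaling 23 members came out higher and 0 lower, with 11 type I effectors and 7 GTPases higher, and 3882 of all tested genes higher and 64 lower. Usp18 (0.29), Irf2 (0.59), Irf8 (0.087) and Irgm2 (0.64) turned positive there. All tested genes called lower numbered 2479 at a minimum of 1 RPKM, 386 at 10 RPKM and 8831 without a filter, against 722. Members called lower numbered 2 without a filter (Ifi44 and Mx1, while Irf1 lost its call with an adjusted p of 0.0670), 0 without young libraries 1 and 2, and 0 to 2 with 1 library left out in turn. With 1 library left out, Bst2 ranged from -0.16 to 0.28, Ifitm2 from -0.0082 to 0.13, Stat2 from -0.0042 to 0.32 and Irgm2 from -0.11 to 0.10. Bst2 was -0.039 with thinned reads and Ifitm2 -0.015 without young libraries 1 and 2. In these cases the cause was not tested.

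With the replicate number as a block, 10 members rose and 0 fell, since Gbp7 (adjusted p = 0.0534) and Irf1 (0.0806) were not called, beside 636 higher and 662 lower of all tested genes. Deviations of same-numbered old and young libraries correlated at -0.17, -0.06, 0.39 and -0.24, and those of unlike-numbered libraries at -0.40 to 0.41. With 4 libraries per age these values cannot decide whether the numbers pair the samples. limma-voom on recovered reads, chosen after seeing the data, also gave 11 higher and 1 lower. The planned edgeR and DESeq2 fits on recovered reads were not run. The shallow young libraries limit all members below the filter.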

Other observations

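Other genes of the interferon response outside the 39 members lay below the filter too. The examples given here do not stand for the rest. Nlrc5, the activator of MHC class I genes, averaged 3.48 RPKM in old and 1.69 RPKM in young libraries, and Rnf213 averaged 4.50 RPKM in old and 2.81 RPKM in young libraries. Adar, which edits double-stranded RNA, averaged 4.08 ± 0.503 RPKM in old and 2.67 ± 0.458 RPKM in young libraries (SD, n = 4 each). Socs1, an inhibitor of the Jak kinases, had 4.04, 0.495, 2.76 and 5.79 RPKM in old and 4.56, 11.2, 9.00 and 3.601 RPKM in young libraries, with a wide spread in each age. Socs3, an inhibitor in the same family, passed the filter. It had 109, 37.1, 102 and 69.5 RPKM in old and 123, 120, 158 and 109 RPKM in young libraries, and was not called (-0.77 ± 0.28, adjusted p = 0.0683). Its low old libraries, 2 and 4, are those in which Irf1 was low. These genes were chosen after their values were seen.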
